A study of Mus musculus with 2 samples.

Results

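The genes of the insulin-like growth factor (IGF) axis described here are the ligands Igf1 and Igf2, the receptors Igf1r and Igf2r, and the binding proteins Igfbp2, Igfbp3, Igfbp4, Igfbp5, Igfbp6 and Igfbp7. They were found as the probes whose gene name on the array is one of these symbols or an older symbol of one of them. All 10 genes were present, of 19748 named genes on the array, through 20 probes and 38 spots. None of the older symbols was in use (0 probes).

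The samples belong to a study of genes that act downstream of FOXJ1, the main transcriptional regulator of motile cilia, in fetal mouse airway. Both groups are wild-type male CD-1 fetuses without any treatment, 1 lung at E14.5 and 1 at E18.5 (embryonic stage in days of gestation). Per the labels' protocols, the epithelium of airways inside the lobes was cut by laser from sections of 1 whole lung at each age. The E14.5 RNA was labelled with Cy3 and the E18.5 RNA with Cy5, and both were hybridised to 1 array. With 1 sample per age and no dye swap, no test was possible, and animal, dye and age cannot be told apart. Ratios are E18.5 over E14.5 on the log2 scale, levels are normalized intensities without a unit, and a gene was called higher or lower at a 2-fold difference. A level can be compared between the ages for a probe, but not between probes. In dissected tissue, fewer cells of a type and less RNA per cell cannot be told apart.

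IGF1 and IGF2 are secreted growth factors that signal through IGF1R, a receptor tyrosine kinase that feeds the PI3K-AKT and RAS-MAPK routes. IGF2R has no kinase and takes IGF2 to the lysosome for breakdown. The binding proteins hold IGFs outside the cell, extend their life and limit or deliver them to the receptor, and proteases such as PAPP-A release the ligand. In fetal lung, IGFs are known largely as products of the mesenchyme that act on epithelium and mesenchyme alike.

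The array reads each gene through probes of 60 bases. Those of Igf1, Igfbp2, Igfbp3 and Igfbp4 below are shown because they lie in the protein-coding part of the message, where the gene's own features can be read. Capitals mark in-frame codons for cysteine (TGT or TGC), which form the disulfide bonds typical of IGFs and their binding proteins, or the stop codon (TAA) in Igfbp2. The codons are read from base 3 in Igf1, Igfbp3 and Igfbp4 and from base 1 in Igfbp2.
Igf1: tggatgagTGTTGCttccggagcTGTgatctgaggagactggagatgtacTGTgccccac
Igfbp2: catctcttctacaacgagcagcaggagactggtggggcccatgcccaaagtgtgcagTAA
Igfbp3: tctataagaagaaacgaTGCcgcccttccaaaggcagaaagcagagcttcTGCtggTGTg
Igfbp4: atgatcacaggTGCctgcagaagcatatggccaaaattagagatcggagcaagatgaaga
On build mm8 of the file headers, the Igf1 probe lies at chr10:87343472-87343531 on the plus strand and holds 4 cysteine codons. The Igfbp2 probe, at chr1:72785310-72785369 on the plus strand, ends exactly with the stop codon. The Igfbp3 probe, at chr11:7108469-7109478 on the minus strand, is spread over 1010 bases of genome, so it crosses an intron, and it holds 3 cysteine codons. The Igfbp4 probe, at chr11:98864367-98864426 on the plus strand, holds 1.

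The IGF genes did not share a direction. By the brightest probe of each, the later age had at least 2-fold more Igfbp6, Igfbp7 and Igf1r signal and at least 2-fold less Igfbp2 and Igf1 signal. Igf2, Igf2r, Igfbp3, Igfbp4 and Igfbp5 lay within 2-fold. That makes 3 of 10 higher and 2 of 10 lower, beside 17.3% and 10.1% of the 17244 genes with a ratio or bound. The median log2 ratio was 0.23 for the 10 genes and 0.06 for all genes. In either direction 5 of 10 (50%) lay past 2-fold, beside 27.4% of all genes, a difference that 1 sample an age gives no test for. All 20 probes were well above background at both ages.

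**Figure D1:**
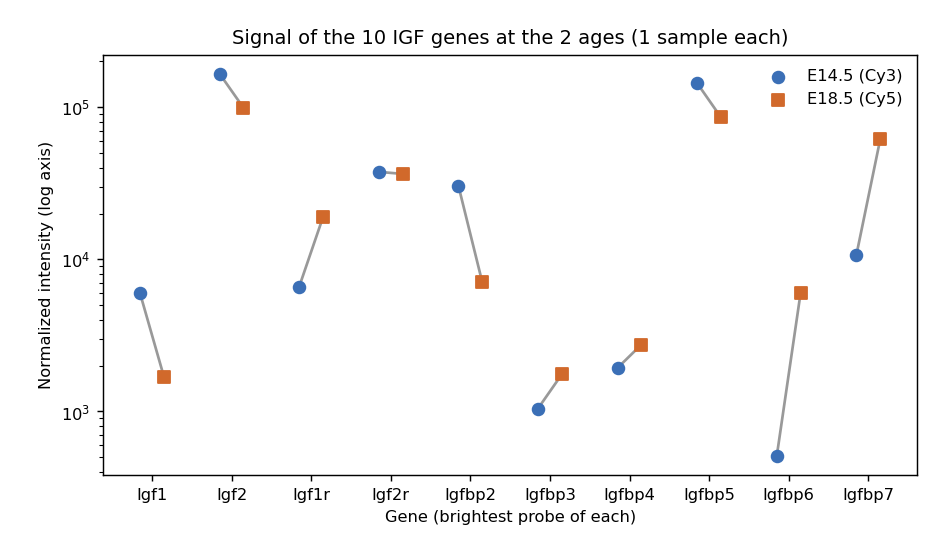
Normalized intensity (log axis) of the brightest probe of each of the 10 IGF genes at E14.5 (blue circles) and E18.5 (orange squares), 1 sample per age, with a line joining both. Igfbp6 climbs from 510.5 to 6054 and Igfbp7 from 10692 to 61732, while Igf1 goes from 6009 to 1698 and Igfbp2 from 30538 to 7078.

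Of the ligands, Igf1 was lower at E18.5 by every probe. The coding probe shown above gave a level of 6009 at E14.5 and 1698 at E18.5, a log2 ratio of −1.82 and a 3.54-fold lower level at the later age. Another probe, at chr10:87360570-87360629, is printed on the array in several copies. Its 9 usable spots read 5647 to 6516 (median 5989) at E14.5 and 1344 to 1544 (median 1442) at E18.5. No spot of one age reached the range of the other. Over these spots the log2 ratio was −2.07 ± 0.02 (SD, 9 spots of 1 array), and a spot marked as an outlier by the scanner software read −1.98. A dimmer probe named after a cDNA clone of Igf1 (AK050118) read 842 and 256, a ratio of −1.72. The SD between the 3 probes was 0.18, smaller than the median of 0.33 over the 7472 genes with several probes. Spots of 1 array measure only the printing and scanning, not the spread between lungs.

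Igf2, the fetal IGF and a gene expressed from the paternal copy, was among the brightest signals of the array at both ages, and its probes disagreed on size. The repeated probe, at chr7:142460185-142460245, read 143040 to 177251 (median 166744) over 9 spots at E14.5 and 95131 to 102990 (median 100041) at E18.5. The E18.5 spots all lay under the E14.5 spots, and the mean log2 ratio was −0.74 ± 0.09 (SD, 9 spots), a 1.67-fold lower level. A second probe, at chr7:142460600-142460659, read 105967 and 19810, a ratio of −2.42 and a 5.35-fold lower level. Both probes thus put Igf2 lower at E18.5, but only the second passed 2-fold. Their SD of 1.19 was exceeded by 352 of the 7472 genes with several probes.

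Igf2 lies at the bright end of the array, where the intensity-dependent correction is large. Only 67 of 41170 probes were brighter than its repeated probe on average. The 114 probes within 0.25 log2 units of that brightness had a median log2 ratio of 1.00 before the intensity-dependent correction and 0.44 after it, so the probe lay below its neighbours in brightness. With a single centring constant in place of the correction, its log2 ratio was −0.21. All 9 spots were scaled up by the scanner software from a scan at lower gain in both channels, as was the second probe. The part of these settings in the gap between the probes was not tested.

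**Figure D2:**
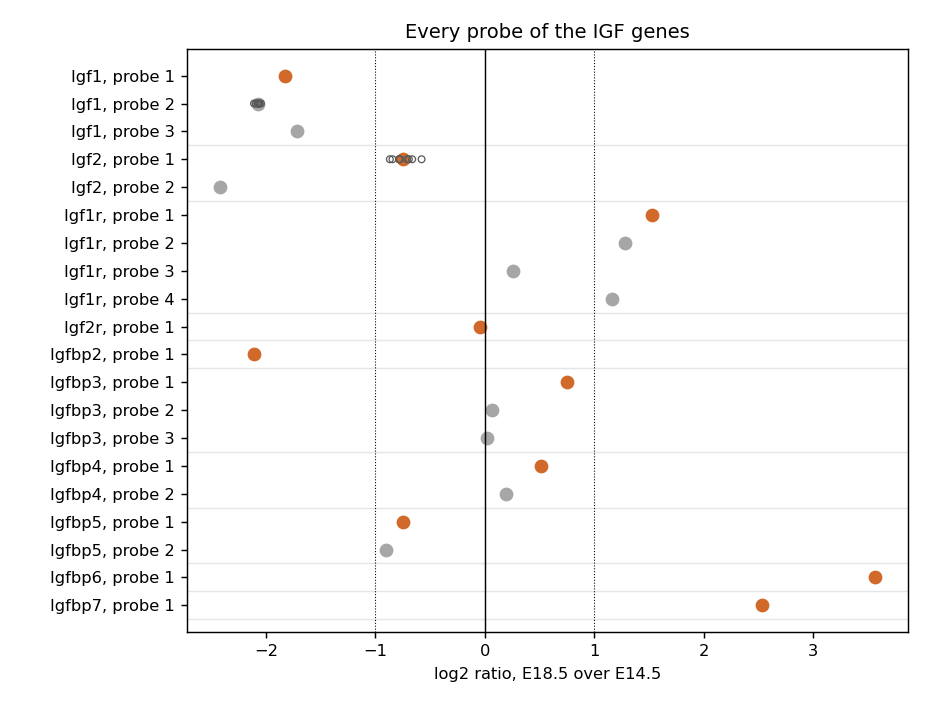
The log2 ratio of E18.5 over E14.5 for each of the 20 probes of the IGF genes, with the brightest probe of a gene in orange, the others in grey, and open circles for repeated spots of 1 probe; dotted lines mark 2-fold. The 3 Igf1 probes lie between −2.07 and −1.72, the 2 Igf2 probes at −0.74 and −2.42.

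The receptors differed from each other. Igf1r, the signalling receptor, had a level of 6607 at E14.5 and 19007 at E18.5 by its brightest probe (chr7:68105625-68105684), a log2 ratio of 1.52 and a 2.88-fold higher level. A second bright probe read 4081 and 9947, a ratio of 1.29. The remaining Igf1r probes were dim: one read 252.5 and 301.3 (0.25) and the other, named after a cDNA clone, 113.5 and 253.9 (1.16). Thus 3 of 4 probes placed Igf1r at least 2-fold higher at the later age, and the median over probes was 1.22. Igf2r, the clearance receptor, was bright and close to equal, at 37618 and 36463 (log2 ratio −0.05, from 1 probe). Its sign changed with the processing, from −0.15 to 0.26, so no direction can be given.

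Of the binding proteins, Igfbp6 had the largest ratio of the 10 genes. IGFBP6 prefers IGF2 over IGF1. At E14.5 its level was 510.5 and at E18.5 it was 6054, a log2 ratio of 3.57 and an 11.9-fold higher level, from 1 probe at chr15:101977366-101977426. Of all genes, 97.9% had a ratio at or below that. Igfbp7, a secreted relative that binds IGFs weakly and is known from blood vessels, had a level of 10692 at E14.5 and 61732 at E18.5 (2.53, 5.77-fold higher), from 1 probe at chr5:78424105-78424164.

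Igfbp2 went the other way and, by the brightest probe of each gene, had the lowest ratio of the set, from 1 probe. The second Igf2 probe was lower still, at −2.42. IGFBP2 carries an integrin-binding motif and is known in developing lung epithelium and in alveolar type I cells. Its level by the coding probe shown above was 30538 in the E14.5 lung and 7078 in the E18.5 lung, a log2 ratio of −2.11 and a 4.31-fold lower level. Only 1.9% of all genes had a ratio at or below it. The genome neighbour of Igfbp2, Igfbp5, with no other protein-coding gene between them on chromosome 1, had a ratio on the same side of 0 but within 2-fold. IGFBP5, a binding protein of matrix and mesenchyme, read 143910 and 85660 by its bright probe (−0.75) and 450.2 and 240.9 by its dim probe (−0.90). That bright probe too lies where the correction is large: 131 probes of like brightness had a median of 0.83 before it and 0.29 after it, and centring alone gave −0.25.

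Igfbp3 and Igfbp4 were within 2-fold by every probe. IGFBP3 is the main carrier of IGFs in blood after birth. Its brightest probe, at chr11:7106594-7106653, read 1046 and 1756 at the earlier and later age (0.75). The coding probe of Igfbp3 shown above was almost at the array's floor, at 96.3 and 97.5 (0.02), and the remaining probe read 147.2 and 154.4 (0.07). The value of Igfbp3 thus rests on 1 probe. For Igfbp4, an inhibitory binding protein that PAPP-A cleaves, the brightest probe (chr11:98868110-98868169) read 1935 and 2757 (0.51) and the coding probe shown above 397.3 and 453.3 (0.19). Igfbp1, the genome neighbour of Igfbp3, was dim at both ages, with levels of 179.8 and 192.4 (0.10).

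The rest of the pathway was mostly within 2-fold. Of 72 further genes in 7 lists, 70 were on the array and 69 had a ratio or bound. Past 2-fold, 4 were higher and 8 lower, which left 57 between, and the median was 0.00, beside 17.3% and 10.1% of all genes and their median of 0.06. Among genes that free IGFs from binding proteins, the protease Pappa (323.9 and 1153, log2 ratio 1.83) and its inhibitor Stc2 (493.3 and 1753, 1.83) were both higher at E18.5, but the other Pappa probe read 0.07. Adam12, another protease of binding proteins, was lower (298.8 and 98.7, −1.60; other probe −0.43). Its E18.5 level was near the lowest signal well above background at that age (63.2), and the scanner software's ratio was −3.11. Pappa, Stc2 and Adam12 made 2 higher and 1 lower of 11. Pappa2 was dim at both ages and gave no ratio.

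Inside the cell, the adaptors held 2 lower and 0 higher genes of 10, beside 10.1% lower and 17.3% higher of all genes. Grb10, an imprinted inhibitor of insulin and IGF receptors, read 138665 at E14.5 and 22742 at E18.5, a ratio of −2.61, and its other probes −2.88 and −1.49. Irs1, the docking protein that links the receptors to PI3K, read 35409 and 12915 (−1.46; other probe −0.62). Of 23 genes of the PI3K-AKT-mTOR arm, 2 were higher and 2 lower, both under these shares of all genes. Pdpk1, the kinase that activates AKT, was at 1.66, but its other probes lay between 0.44 and 0.72. Pik3r3, a regulatory subunit of PI3K, was at −1.79 (others −1.30 to −0.61). None of the 8 genes of the RAS-MAPK arm passed 2-fold (0 higher, 0 lower). The insulin receptor Insr, which can pair with IGF1R, was just inside 2-fold (1824 and 3600, 0.98), and its other probe was at 0.21.

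Of the partners of Igf2 in imprinting and RNA handling, all measured genes but Airn had ratios below 0. H19, the maternally expressed RNA next to Igf2 on chromosome 7, read 210004 at E14.5 and 46208 at E18.5 (−2.18; other probe −3.11). Of the Igf2 mRNA-binding proteins, Igf2bp1 was at −1.90 (other probes −1.10 and −0.34), Igf2bp3 at −1.24 (others −1.46 and −1.42) and Igf2bp2 at −0.95. In all, 3 of 6 genes passed 2-fold downward and 0 upward, beside 10.1% and 17.3% of all genes. Plagl1 was at −0.55 and Airn, the antisense RNA of Igf2r, at 0.14. Ins2, on the other side of Igf2, was dim (228.7 and 125.7, −0.86).

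**Figure D3:**
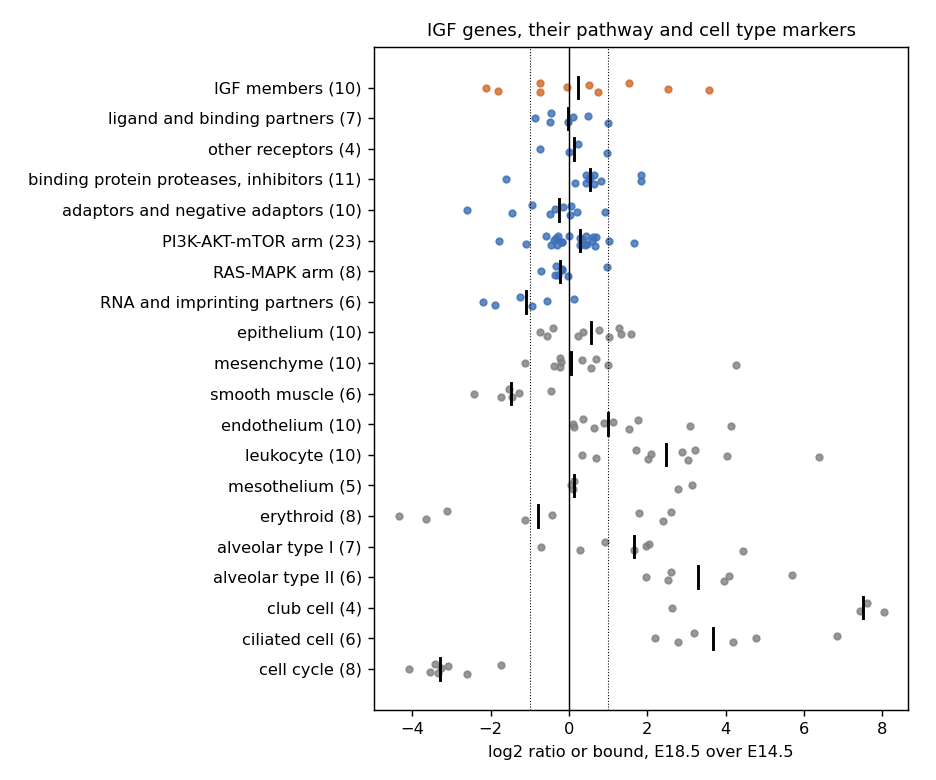
The log2 ratio (or bound) of E18.5 over E14.5 for the 10 IGF genes (orange), the 7 lists of other pathway genes (blue) and 12 lists of cell type and cell cycle markers (grey), 1 point per gene, with the number of genes in parentheses; bars are medians and dotted lines 2-fold. The IGF genes spread from −2.11 to 3.57 around a median of 0.23, while all 8 cell cycle genes lie below −1 and all 4 club cell genes above 1.

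Marker genes were read as a guide to the cells in the dissected material, and some are shared between cell types. Counts past 2-fold in the marker lists, here and below, stand beside 17.3% higher and 10.1% lower of all genes. They rest on the brightest probe of each gene, and other probes of some genes lay within 2-fold. Epithelial genes were well above background at both ages, 4 of 10 at least 2-fold higher and 0 lower, with summed levels of 351646 and 563665. A sum is led by its brightest probes and can be compared between the ages only, not between lists. Without Krt8, the brightest gene, the epithelial sums were 274251 and 433137. The higher genes were Krt18 (1.59), Cdh1 (1.34), Elf3 (1.28) and Krt19 (1.03). Epcam (−0.75), Nkx2-1 (−0.57) and Esrp1 (−0.40) had ratios below 0, within 2-fold. The highest medians of the 12 marker lists were those of single epithelial cell types. Club cell markers had sums of 32361 (E14.5) and 1087375 (E18.5), with 4 of 4 higher and a median of 7.51. Ciliated cell markers had 15709 and 152187 (6 of 6 higher, median 3.68). Alveolar type II markers had 42041 and 264734 (6 of 6 higher, median 3.29). The part of these cells in the IGF ratios was not tested. Markers of cells outside the epithelium had signal too. Mesenchymal markers had summed levels of 291572 (E14.5) and 384826 (E18.5). Past 2-fold, 1 of 10 was higher (Dpt, 4.27) and 1 lower (Lum, −1.13), and the median was 0.06. Smooth muscle markers had sums of 372639 and 147345, with 5 of 6 lower and a median of −1.48. Lung mesenchyme is a known source of Igf1, Igf2, Igfbp4 and Igfbp5. The part of these cells in the ratios of Igf1, Igf2, Igfbp4 and Igfbp5 was not tested.

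Endothelial markers, which stand beside Igfbp7 and Igfbp3, had sums of 20744 (E14.5) and 115332 (E18.5). Past 2-fold, 5 of 10 were higher and 0 lower, and the median was 1.00. The brightest Kdr probe went from 4090 to 71669, but the other Kdr probe had a log2 ratio of 0.04. Other probes read −0.15 to 2.27 for Vwf (3.09) and −0.03 to 1.65 for Flt1 (1.53). Emcn and Cldn5, also higher, had 1 probe each. Without Kdr the sums were 16654 and 43663. Pecam1, Cdh5, Tie1, Eng and Tek were within 2-fold. Mesothelial markers, which stand beside Igfbp6, had sums of 5943 and 48400, with 2 of 5 higher (Msln 3.13, Upk1b 2.79) and a median of 0.13, while Upk3b, Wt1 and Lrrn4 had levels between 93.9 and 137.6 at both ages. Msln made up most of these sums, which were 968 and 4808 without it. That median rests on few genes: with gene names as in the file, which lose Lrrn4, it was 1.46 over 4 genes. Leukocyte markers had sums of 6125 and 166544, with 8 of 10 higher and 0 lower. Most of the later sum was Lyz2, a macrophage and alveolar type II gene, at 1769 and 146915, and the sums without it were 4356 and 19629. Itgam was above background at 1 age only. Of the higher leukocyte genes, other probes read −0.12 to 0.53 for Ptprc (3.21), 0.21 for Adgre1 (2.89) and −0.02 to 1.05 for Csf1r (1.72). The other Lyz2 probe read 4.32, and the remaining higher genes had 1 probe each. The part of these cells in the higher Igfbp6 and Igfbp7 was not tested. Erythroid markers were split, with sums of 131017 (E14.5) and 524778 (E18.5) but a median of −0.78. Past 2-fold, 3 of 8 were higher (Hba-a1, Hbb-bt and Alas2) and 4 lower (Hbb-y, Hba-x, Hbb-bh1 and Klf1). Without Hbb-bt, the brightest gene at E18.5, the erythroid sums were 83014 and 232948. The part of erythroid cells in the IGF ratios was not tested.

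Alveolar type I markers, which stand beside Igfbp2, had sums of 62615 and 161353 and a median of 1.65. Past 2-fold, 4 of 7 were higher and 0 lower. The list was mixed, with Pdpn at −0.71 and Rtkn2 at 0.29 (other probes −1.81 to 0.18). The part of alveolar type I cells in the ratio of Igfbp2 was not tested. Cell cycle genes, which stand beside all the lower members, had sums of 218287 and 22417, with 8 of 8 lower and a median of −3.30. Their relation to Igf1, Igfbp2 and Grb10 was not tested.

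**Figure D4:**
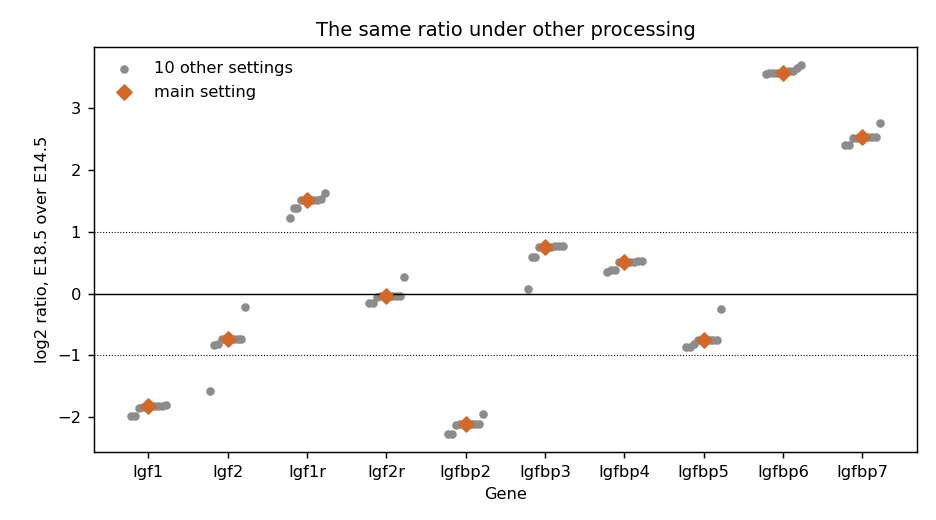
The log2 ratio of each IGF gene under the main processing (orange diamonds) and 10 other settings (grey points); dotted lines mark 2-fold. Igf2 spreads from −1.58 to −0.21 and is the single gene of the set with a setting on the other side of a dotted line.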

How the data were processed

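Per the file headers and the submitters' processing notes, the deposited tables are the output of Agilent Feature Extraction 9.5.3.1. They hold linear mean intensities and median local background intensities per spot, without subtraction. The software's own processed intensities (background-subtracted, dye-normalized), their red-to-green log10 ratio and flags of 0 or 1 are deposited too. The 2 scanner outputs agreed in 115 of 115 columns and were read as 1 array. The authors' value table holds linear intensities: each column was 0.339 times the processed intensity of its own channel, with a floor of 15, column medians of 129.1 and 130.2, no centring, and direction known from the dyes in the labels.

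Here, intensities were background-corrected (normexp, offset 50), and log2 ratios normalized by loess (span 0.3, 4 iterations; limma 3.58.1, R 4.3.3). Controls and 160 spots with an outlier flag got weight 0 in the curve and were left out of the probe ratios, and 0 probe spots were saturated. Loess hides a shift common to most genes, and the offset pulls dim ratios towards 0. The steps were also run on simulated data in which few probes changed, equally in both directions. Many more genes differ here, so that run cannot judge the correction in these data. Repeated spots were averaged, and the brightest probe above background in at least 1 channel stood for a gene. A probe above background at 1 age only gave a bound against the higher of its own signal and the lowest such signal of that channel. At E14.5 75.2% and at E18.5 78.7% of probes were well above background. The number of arrays, 1, limits the precision. Names came from a RefSeq table (GRCm38.p6), which named 33099 of 41170 probes.

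The genes, lists and the rule for naming genes were chosen with earlier results of these data known. All members are named by every probe; of the other lists, genes at least 2-fold from 0 and a few fixed genes. Igf2bp2, Plagl1, Airn and the single markers given (Dpt, Lum, Msln, Upk1b, Kdr, Lyz2 and others) were picked after their values were seen. Single values of some pathway genes are not reported here. Scripts used Python 3.11.15.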

Additional observations from a re-analysis of the deposited data

How the results depend on the processing

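Each IGF gene was recomputed under 10 alternatives: normexp with offset 0, plain subtraction, median centring, the scanner software's ratio, the authors' value table, the median over probes, 2 filters on dim probes, outlier spots kept, and gene names as in the file. Igf1, Igf1r, Igf2r, Igfbp2, Igfbp3, Igfbp4, Igfbp5, Igfbp6 and Igfbp7 kept their side of 2-fold in 10 of 10 alternatives. Igf2 did so in 9 of 10 and was at −1.58 by the median over probes, which joins its 2 probes. The sign of Igf2r changed. Igfbp3 was at 0.07 by the median over probes. The count of other pathway genes at least 2-fold higher was 2 by the median over probes, against 4. Of these genes, 11 were lower by the scanner software's ratio and by the authors' value table, against 8. Of all genes, 2556 and 2575 were lower under these 2 settings, against 1738. By the median over probes 2626 of all genes were higher, against 2986. The shares of 17.3% and 10.1% thus hold for the main processing only. Medians of marker lists moved too. With gene names as in the file, where some lists lose genes, they were 1.03 for epithelium (against 0.56), 2.06 for leukocytes (2.48), 1.46 for mesothelium (0.13), −1.12 for erythroid cells (−0.78) and 3.18 for ciliated cells (3.68). Median centring gave 0.98 for epithelium and 0.41 for mesenchyme (0.06). The median over probes gave 2.06 for leukocytes and 2.94 for ciliated cells, and probes above background in both channels 2.89 for leukocytes. The scanner software's ratio and the authors' value table each gave −1.35 for erythroid cells. The scanner software's ratio moved the median of all genes from 0.06 to −0.05, and median centring to 0.13. No paired analysis was possible because each age has 1 sample. Dim probes, such as those of Igfbp3 and Igf1r, limit what can be read from them.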
